A study of Macaca mulatta with 25 samples.

Results

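KRT222, HGD, RGCC and SCGB1D4 are 4 genes whose signal in the cervix of rhesus macaques peaked after 1 day of progesterone. They were chosen for that peak, by symbol, from 15534 genes on an Affymetrix array for rhesus transcripts, and each was represented by the probe set listed for it with the highest mean, which for all 4 was the only probe set listed. The values that chose them were the E+1P signals set against those of the other groups, so the differences that involve E2 or E+1P are given as a description with no test. The animals were 25 adult ovariectomized Macaca mulatta, all with an estradiol implant, in 5 groups of 5, and each gave a single array. Animals of the E2 group received only estradiol, for 14 days. In E+1P a progesterone implant had been added for 1 day, in E+3P for 3 days, in E+7P for 7 days and in E+14P for 14 days. The days of estradiol in the progesterone groups are not given in the labels, so a difference from E2 cannot be separated from a longer time on estradiol. Ovariectomy removes the main source of ovarian hormones, so the implants stand in for the ovary and the cycle is an artificial one.

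Progesterone acts on the cervix through its nuclear receptor, a transcription factor whose gene, PGR, is itself induced by estrogen and lowered by progesterone. Transcripts of direct targets can appear within hours, and some of them fade while the hormone is still present. The 4 genes belong to unrelated families. KRT222 encodes a keratin-like protein of the type I keratin group, whose members build the intermediate filaments of epithelial cells. HGD encodes homogentisate dioxygenase, an enzyme of tyrosine breakdown that is missing in human alkaptonuria. RGCC, the regulator of cell cycle (response gene to complement), encodes a protein that binds the mitotic kinase CDK1 in cultured cells. SCGB1D4 encodes a secretoglobin, a small protein secreted by mucosal epithelium, and in human cells it was described as inducible by interferon gamma.

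All values are log2 signals, on which a difference of 1 is a doubling. Array medians lay between 5.502 and 5.604. In a bulk sample of cervix, fewer cells of a type and less RNA per cell cannot be told apart. The mean signal of 12 columnar and gland epithelium markers lay between 8.55 and 8.80 in E+1P and between 7.81 and 8.70 in E2. That of 6 measured squamous markers of 10 lay between 5.87 and 8.13 in E+1P and between 4.78 and 7.53 in E2. Signal over background is unknown, so the presence or absence of a cell type could not be read from these levels alone. E+3P replicates 2 and 3 stood apart, with columnar marker means of 5.27 and 6.57 and ciliated cell marker means of 4.58 and 4.65, and replicate 3 had a squamous mean of 10.75. In E+14P, replicate 4 was low in ciliated cell markers (4.99) and replicate 5 was high in squamous markers (9.54). An alternative without these 4 arrays was run for the 4 genes, the counts of calls and other named genes. The correlations, the counts of called neighbours and some genes named after their values were seen had no such alternative.

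KRT222 (probe set 13679497) formed a peak in E+1P and was low in all other groups. The E2 arrays, replicates 1 to 5, gave 5.06, 5.07, 4.27, 4.75 and 5.05. The E+1P arrays gave 7.84, 7.04, 8.54, 7.36 and 7.63. Every E+1P animal was therefore above every E2 animal. After 3 days of progesterone the signals were 4.10, 4.67, 3.54, 3.95 and 4.33, and 3 of these 5 animals were below every E2 animal. After 7 days they were 4.41, 4.32, 5.81, 4.04 and 4.88. After 14 days they were 5.11, 4.21, 4.79, 3.90 and 4.04. Of the 20 arrays outside E+1P the highest was E+7P replicate 3, which was still 1.23 below the lowest E+1P array. The mean rose from 4.84 ± 0.34 in E2 to 7.68 ± 0.57 in E+1P (SD, n = 5 each), a log2 difference of 2.84 (SE 0.31) or 7.15-fold. From E+1P to E+3P it dropped by 3.56 (SE 0.31), to 4.12 ± 0.42. The E+3P mean was the lowest of the 5 groups and differed from E2 by -0.73 (SE 0.31), a difference with overlapping ranges. All E2 and E+3P signals of KRT222 lie below the array medians, where how much of a signal is background is unknown. Its fold and its low E+3P values hold for the deposited signal and may not measure the change in transcript.

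HGD (probe set 13710027) also formed a peak in E+1P that no animal of another group reached. The E2 arrays gave 4.37, 4.24, 4.68, 4.65 and 4.69. The E+1P arrays gave 7.23, 7.04, 6.18, 6.58 and 7.17, all above every E2 animal. After 3 days the signals were 4.99, 4.94, 4.42, 4.28 and 4.86, and 3 of these animals remained slightly above every E2 animal. After 7 days they were 4.91, 4.56, 4.77, 4.06 and 4.12. After 14 days they were 5.00, 4.30, 5.10, 3.89 and 4.06. The ranges of these 3 late groups and of E2 overlapped one another, and the highest of the 20 arrays outside E+1P, E+14P replicate 3, was 1.09 below the lowest E+1P array. The mean was 4.53 ± 0.21 in E2, 6.84 ± 0.45 in E+1P and 4.70 ± 0.33 in E+3P (SD, n = 5 each). The E+1P difference from E2 was 2.31 (SE 0.24), or 4.97-fold, and the later groups differed from E2 by 0.17 (E+3P), -0.04 (E+7P) and -0.06 (E+14P), each with an SE of 0.24. All HGD signals outside E+1P lie below the array medians, where the share of background is unknown. The fold and the small late differences therefore hold for the deposited signal and may not measure the transcript.

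RGCC (probe set 13683125) rose in E+1P in every animal and then differed between the animals of E+3P. The E2 arrays gave 6.34, 5.92, 5.47, 5.38 and 6.08. The E+1P arrays gave 8.38, 8.79, 8.38, 7.88 and 8.58, without overlap with E2. After 3 days the signals were 6.36, 6.37, 5.19, 7.14 and 8.71. In this group replicate 5 lay at the E+1P level and replicate 3 below every E2 animal. Replicates 1, 2 and 4 lay between the E2 and E+1P ranges, replicates 1 and 2 only just above the highest E2 animal. After 7 days they were 5.80, 5.85, 6.19, 6.80 and 6.08. After 14 days they were 6.33, 5.17, 6.23, 5.72 and 5.69. The E+14P range overlapped that of E2, and 1 E+7P animal was above every E2 animal. The mean was 5.84 ± 0.41 in E2, 8.40 ± 0.34 in E+1P and 6.75 ± 1.30 in E+3P (SD, n = 5 each), so that the SD of E+3P was the largest of the 5 groups. The difference of E+1P from E2 was 2.56 (SE 0.41), or 5.91-fold. That of E+3P from E2 was 0.92 (SE 0.41), and 0.43 without replicate 5.

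SCGB1D4 (probe set 13648176) had the largest difference between E+1P and E2 of all 15534 genes. The E2 arrays gave 3.10, 2.53, 2.43, 3.08 and 2.36. The E+1P arrays gave 6.80, 5.34, 6.02, 6.85 and 5.91, all above every E2 animal. After 3 days the signals were 5.07, 2.67, 2.82, 4.99 and 7.86, so that replicate 5 was the highest of all 25 arrays while replicates 2 and 3 lay in the E2 range. After 7 days they were 2.50, 3.63, 3.44, 3.37 and 2.40. After 14 days they were 4.58, 1.97, 3.44, 2.32 and 2.50, with replicate 1 the highest of the 10 late arrays. The mean was 2.70 ± 0.36 in E2, 6.18 ± 0.64 in E+1P and 4.68 ± 2.12 in E+3P (SD, n = 5 each). The difference of E+1P from E2 was 3.48 (SE 0.67), or 11.2-fold on the deposited scale. The E2 signals lie far below the array medians, where how much of a signal is background is unknown, so the fold and the rank of this gene hold for the deposited signal and may not measure the change in transcript. That of E+3P from E2 was 1.98 (SE 0.67), and 1.18 without replicate 5, and the size of the fall from E+1P to E+3P depended on which E+3P animals were counted. It was -1.50 with all arrays, -2.30 without replicate 5, -0.997 without replicate 2 and -1.03 without replicate 3. Without the 4 arrays that stand apart it was -0.21, smaller than the SD of E+1P.

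**Figure D1:**
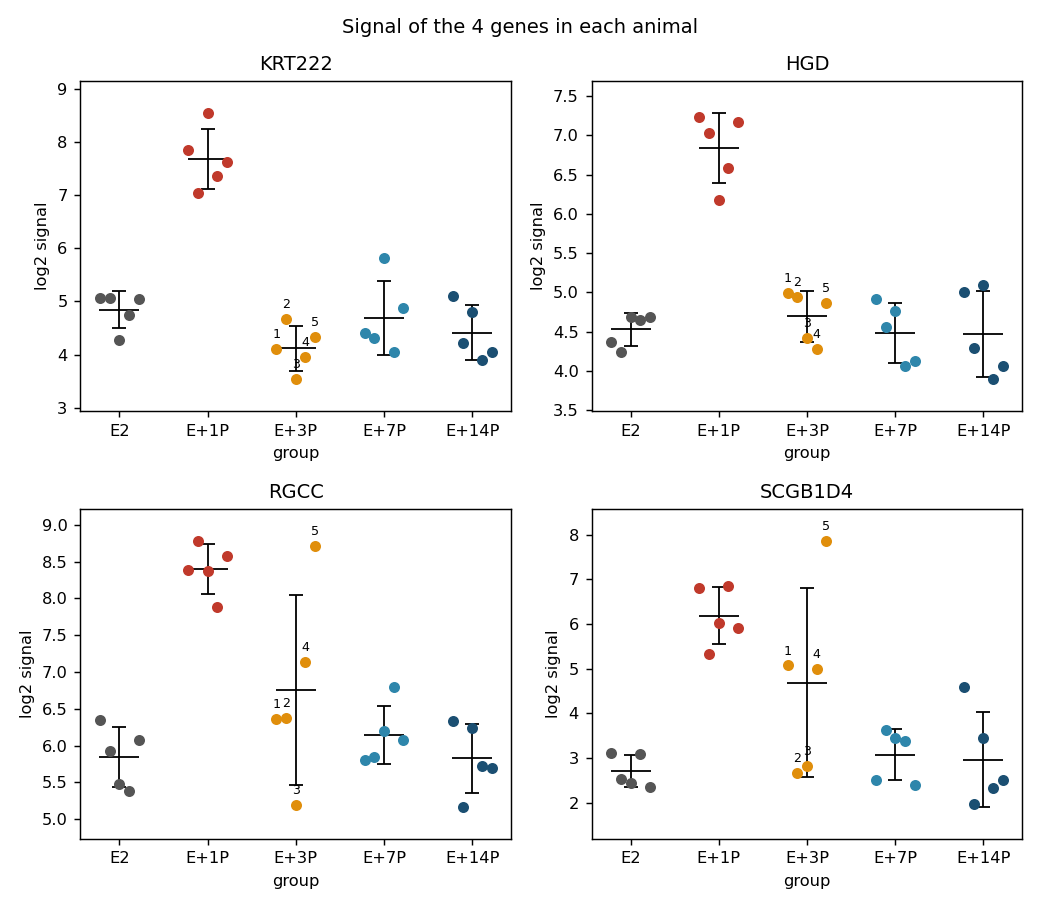
Log2 signal (vertical axis) of KRT222, HGD, RGCC and SCGB1D4 in the 5 groups (horizontal axis), 1 point per animal, with the mean as a bar and the SD as whiskers (n = 5 per group); E+3P points carry their replicate number. The E+3P animals reach at most 4.67 for KRT222 and 4.99 for HGD, while RGCC and SCGB1D4 are at 8.71 and 7.86 in E+3P replicate 5.

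The order of the group means was E+1P, E2, E+7P, E+14P and E+3P for KRT222, and E+1P, E+3P, E2, E+7P and E+14P for HGD. For RGCC it was E+1P, E+3P, E+7P, E2 and E+14P, and for SCGB1D4 E+1P, E+3P, E+7P, E+14P and E2. For KRT222 and HGD the step from E+1P to the next group was without overlap, and all other neighbours in the order overlapped. For RGCC and SCGB1D4 every pair of neighbours overlapped, including E+1P and E+3P. All 4 genes had every E+1P array above every E2 array, which held for 3.1% of the 40489 probe sets. KRT222 and HGD had every E+1P array above all 20 other arrays, which held for 0.509%, and for RGCC and SCGB1D4 a single array, E+3P replicate 5, stood in the way. Nothing is read from these counts, since the genes were chosen by this contrast. Ranked by the difference between E+1P and E2 the 4 genes were at place 1 (SCGB1D4), 4 (KRT222), 6 (RGCC) and 10 (HGD) of 15534.

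The comparisons among the late groups do not include E2 or E+1P and were tested. The late groups were, however, among those that E+1P was set against when the 4 genes were chosen. Genes chosen for a peak in E+1P are low in the late groups by that choice. These tests therefore cannot decide how the 4 genes behave there, and no conclusion is drawn from them. Neither comparison passed the threshold for any of the 4 genes. From E+3P to E+7P SCGB1D4 changed by -1.61 (95% interval -3.00 to -0.22, adjusted p = 0.403 in limma over all probe sets), RGCC by -0.61 (-1.45 to 0.23, adjusted p = 0.562), KRT222 by 0.58 (-0.07 to 1.23, adjusted p = 0.492) and HGD by -0.21 (-0.72 to 0.29, adjusted p = 0.755). Without E+3P replicate 5 the SCGB1D4 change was -0.82 and the RGCC change -0.12, and without E+7P replicate 3 the KRT222 change was 0.30. In that comparison 2 probe sets were called (0.00494%), 1 listed for PLEKHA5, named here after its value was seen, and 1 with no gene listed. From E+7P to E+14P the changes were -0.01 for HGD (-0.52 to 0.49), -0.28 for KRT222 (-0.93 to 0.37), -0.32 for RGCC (-1.15 to 0.52) and -0.11 for SCGB1D4 (-1.50 to 1.28), with adjusted p between 0.987 and 0.998 in limma. No probe set (0%) was called there, against 1729 at an unadjusted p under 0.05 (4.27%). The intervals are wide, and for SCGB1D4 they include a change of -1.50 as well as of 1.28 between E+7P and E+14P, so a missed threshold does not show that the late groups were alike.

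The spread of SCGB1D4 within E+3P ran along with the columnar and the ciliated cell marker means of the arrays, and that of RGCC only in part. The mean of the 12 columnar and gland markers was 7.39, 5.27, 6.57, 8.58 and 8.06 in E+3P replicates 1 to 5. SCGB1D4 was highest in replicates 1, 4 and 5 and at the E2 level in replicates 2 and 3, which had the lowest columnar means. The columnar mean was highest in replicate 4, and SCGB1D4 in replicate 5. The ciliated cell marker means were 6.64, 4.58, 4.65, 7.13 and 7.53, also lowest in replicates 2 and 3 and highest in replicate 5. RGCC in replicate 2, with the lowest columnar mean, was at 6.37, level with replicate 1 (6.36) and above replicate 3 (5.19). The mean of 5 measured fibroblast markers of 6 (collagen and proteoglycan genes) was 10.41, 10.63, 9.86, 9.08 and 7.83, so replicate 5, with the highest SCGB1D4 and RGCC, had the lowest fibroblast mean of all arrays. KRT222 and HGD did not follow: in replicate 5 they were at 4.33 and 4.86, inside the range of the other E+3P animals. With the squamous, columnar and smooth muscle means as covariates the difference of E+3P from E2 was 3.65 for SCGB1D4 and 1.82 for RGCC, while it was -0.48 for KRT222 and 0.21 for HGD. The difference of E+3P from E+1P was then 0.26 for SCGB1D4, of the opposite sign, and -0.69 for RGCC. Without the 4 arrays that stand apart, SCGB1D4 was 3.27 higher in E+3P than in E2 and RGCC 1.56 higher, from 3 E+3P animals. The part of tissue makeup in these values was not tested.

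**Figure D2:**
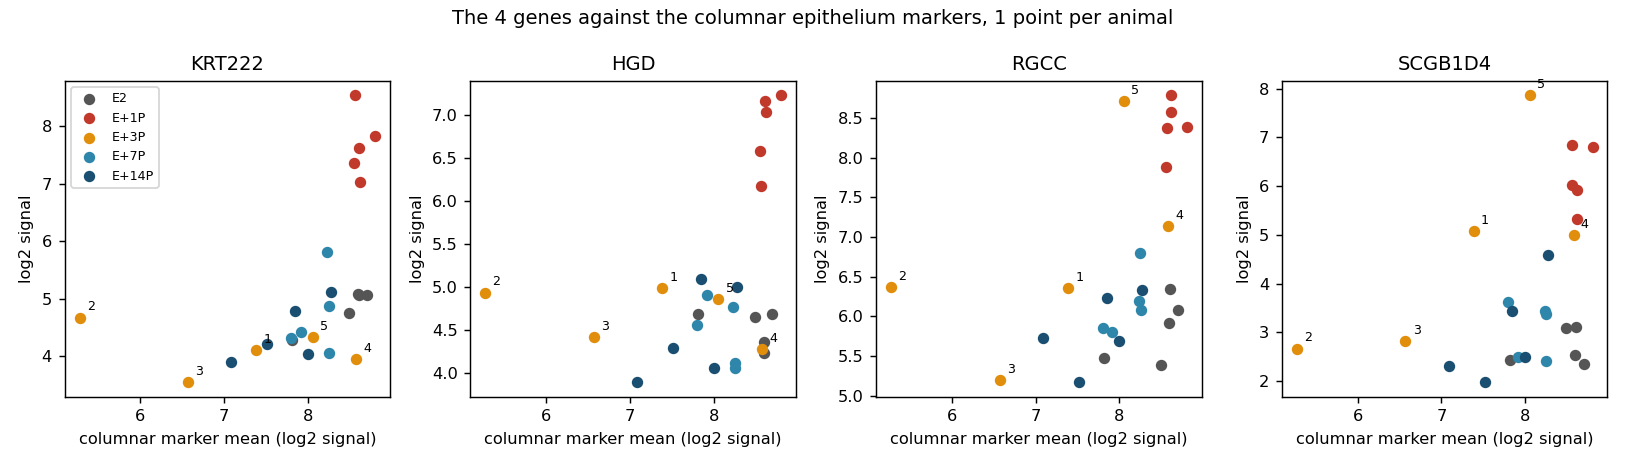
Log2 signal of each of the 4 genes (vertical axis) against the mean log2 signal of 12 columnar and gland epithelium markers (horizontal axis), 1 point per animal coloured by group, with replicate numbers on the E+3P points. The E+1P animals share a narrow range of columnar means, 8.55 to 8.80, and E+3P replicates 2 and 3 sit at 5.27 and 6.57 with SCGB1D4 at 2.67 and 2.82.

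Of the 9 marker lists, the fibroblast list was the only list whose array means did not overlap between E+1P and E2. It was picked for that after seeing the data. The mean of its 5 measured markers lay between 8.63 and 9.54 in E+1P and between 9.74 and 10.40 in E2. Of these markers 0 were called in limma (adjusted p between 0.251 and 0.788), beside 3.55% of all genes, so nothing is read from that count. Among single probe sets 2.42% had every E+1P array below every E2 array, and no such share was counted for list means. With the fibroblast mean as a covariate, chosen after seeing the data, the E+1P difference from E2 was 2.66 for KRT222, 2.39 for HGD, 2.03 for RGCC and 2.75 for SCGB1D4. It was thus lower than without the covariate for RGCC and SCGB1D4, by more than the SD between animals, and little changed for KRT222 and HGD. The part of the fibroblast difference in these values was not tested.

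Each gene was then set against the genes that lie beside it in the genome. The order of genes was taken from RefSeq for the assembly T2T-MMU8v2.0, in which all 4 were found. That order may differ from the one behind the array design, and no positions are printed for that reason. The nearest measured gene on each side was tested in the fit over all probe sets, which the choice of the 4 genes did not use. Of these 8 neighbours 1 rose and 1 fell after 1 day of progesterone, against 1.39% of all probe sets called higher and 0.929% called lower. Over all 15534 genes 3.55% were called in either direction.

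SMARCE1, the neighbour of KRT222 on one side, rose. It encodes a subunit of the BAF (SWI/SNF) chromatin remodelling complex, and no measured gene lies between it and KRT222. The E2 arrays gave 7.92, 7.94, 7.91, 7.91 and 7.87. The E+1P arrays gave 8.37, 8.20, 8.59, 8.35 and 8.52, all above every one of the 20 other arrays, as for 0.509% of probe sets. The animals of E+3P were at 7.84, 7.82, 7.69, 7.86 and 7.74, below every E2 animal by a small margin, a difference of -0.12 that was not called (adjusted p = 0.296 in limma). The highest array outside E+1P was at 8.01, in E+7P. SMARCE1 thus had the same time course as KRT222 at a much smaller size, 0.50 (SE 0.07, 1.41-fold, adjusted p = 0.000346 in limma) from E2 to E+1P and -0.61 (SE 0.07, adjusted p = 2.17e-05) from E+1P to E+3P. Both calls held in all 23 alternatives run for each, with adjusted p up to 0.00705 and 0.0184. The E+1P animals had a similar order in the 2 genes, with replicate 3 the highest and replicate 2 the lowest in both. Among 9111 genes with a median signal at or above the median of all values, SMARCE1 was the one whose values over the 25 arrays were most like those of KRT222 (Pearson r = 0.92, a description in which all arrays share the group structure).

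The neighbour on the other side, the keratin gene KRT24, gave 4.10, 4.17, 5.42, 5.33 and 4.70 in E+1P and 3.45, 4.29, 3.57, 3.72 and 4.47 in E2. The groups overlapped, and the difference of 0.85 (SE 0.24) did not pass the threshold (adjusted p = 0.0585 in limma), with a range of adjusted p from 0.0273 to 0.189 over its alternatives. It came under the threshold when E+1P replicate 1 (0.0273), E+1P replicate 2 (0.0327) or E2 replicate 5 (0.0323) was removed. From E+1P to E+3P KRT24 fell by 0.97 (adjusted p = 0.0208 in limma, beside 3.01% of probe sets called lower). Removing E+1P replicate 3 (0.073), E+1P replicate 4 (0.0652) or E+3P replicate 2 (0.0572) ended that call, as did removing all 4 outlying arrays (0.122) or fitting both groups on their own (0.109). The next keratin genes along the segment, KRT25, KRT26, KRT27 and KRT28, had E+1P differences between -0.08 and 0.12, with adjusted p from 0.823 to 0.978.

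LOC100426696, a protein-coding gene with no other name in RefSeq, is the nearest measured gene on one side of SCGB1D4, with 1 gene that was not measured between them. It gave 3.27, 4.27, 3.84, 3.43 and 3.64 in E2 and 5.34, 5.68, 5.49, 5.55 and 5.65 in E+1P. All 5 E+1P animals were thus above every E2 animal, as for 3.1% of probe sets. In E+3P it gave 5.14, 3.46, 3.61, 5.37 and 8.33, with replicate 5 the highest and replicates 2 and 3 in the E2 range, the same animals as for SCGB1D4. Its E+1P difference was 1.85 (SE 0.54), which was not called in the fit over all groups (adjusted p = 0.0747 in limma). That difference was called in 5 of 22 alternatives. The adjusted p ranged from 0.000349, with both groups fitted on their own, to 0.247. Its values over the 25 arrays had r = 0.88 with those of SCGB1D4. The next measured gene on that side, LOC722315, named here after its values were seen, gave 6.47, 6.60, 5.52, 3.33 and 4.93 in E+1P, and its difference of 1.34 (SE 0.63) was not called (adjusted p = 0.352). Which members of the secretoglobin cluster these loci resemble is not settled by the annotation used here, and probe sets of similar genes may share signal.

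HGD and RGCC did not have a neighbour that rose. Beside HGD, RABL3, a RAB-like GTPase gene, differed by 0.05 (95% interval -0.23 to 0.33) between E+1P and E2, and NDUFB4, a subunit of respiratory complex I, by -0.02 (-0.17 to 0.12). Beside RGCC, NAA16, an auxiliary subunit of an N-terminal acetyltransferase, differed by -0.06 (-0.27 to 0.15). VWA8, on the other side of RGCC, fell by 0.53 (SE 0.13, adjusted p = 0.0245 in limma), opposite to RGCC, with all 5 E+1P animals below every E2 animal, as for 2.42% of probe sets. Removing any of 4 arrays, E+1P replicates 1 and 5 and E2 replicates 1 and 4, ended the VWA8 call (adjusted p up to 0.0793), and so did the fibroblast covariate (0.0582). ASRGL1, an asparaginase-like gene beside SCGB1D4, differed by 0.01 (-0.59 to 0.60). Taking 5 measured genes on each side, a width chosen with the data at hand, 2 of 40 rose, SMARCE1 and AHNAK (0.64, adjusted p = 0.000255 in limma), and 1 fell, VWA8. Over all 15534 genes 3.55% were called in either direction, and nothing is read from the count of 40. AHNAK, a large scaffold protein gene, remained 0.66 above E2 in E+3P (adjusted p = 0.000166 in limma, beside 5.07% of probe sets called higher).

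**Figure D3:**
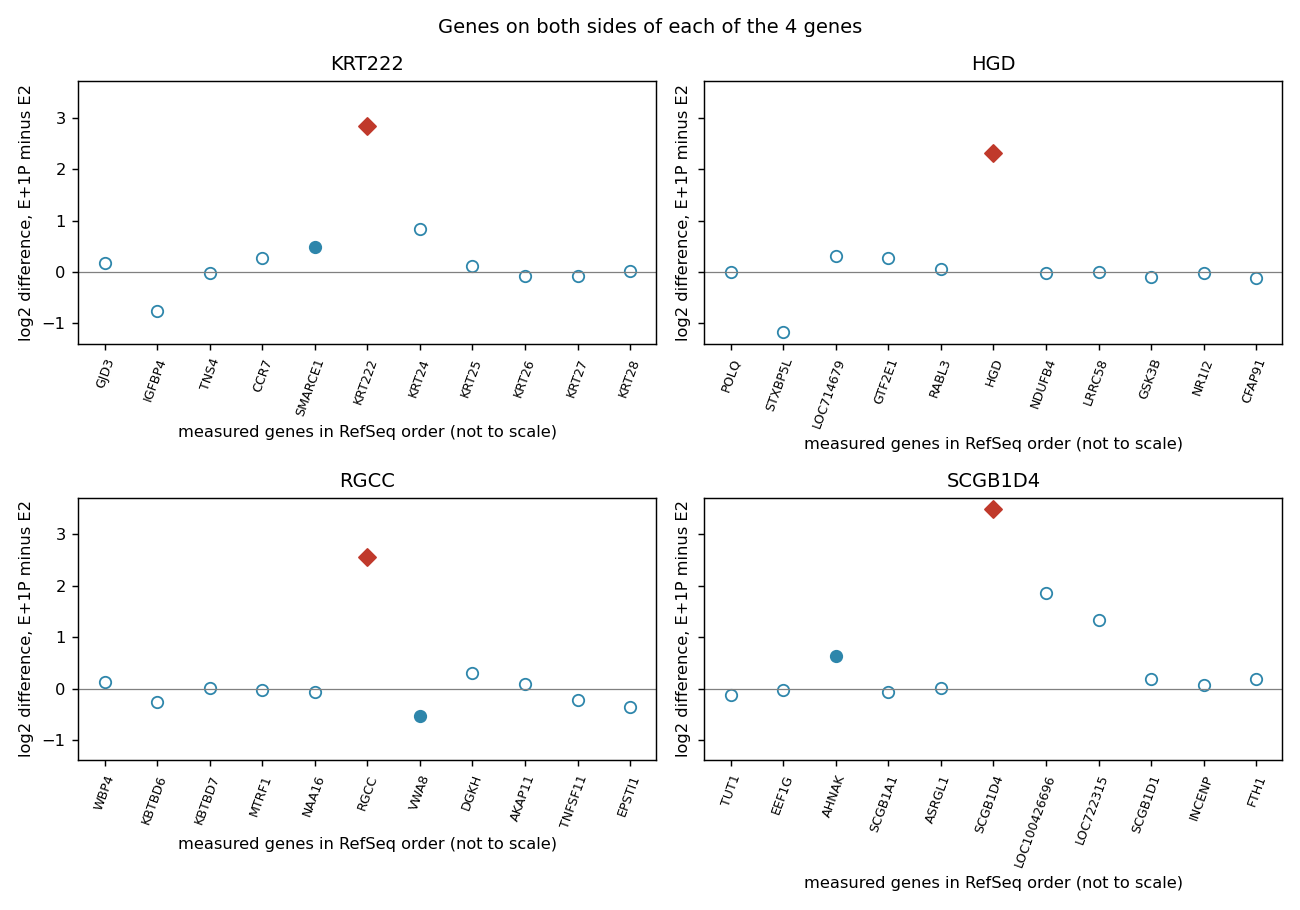
Log2 difference between E+1P and E2 (vertical axis) for each of the 4 genes (diamond) and 5 measured genes on either side in RefSeq order (circles, filled where the adjusted p was under 0.05). Filled circles are SMARCE1 and AHNAK, which were higher, and VWA8, which was lower; the open circles after SCGB1D4 at 1.85 and 1.34 are LOC100426696 and LOC722315.

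**Figure D4:**
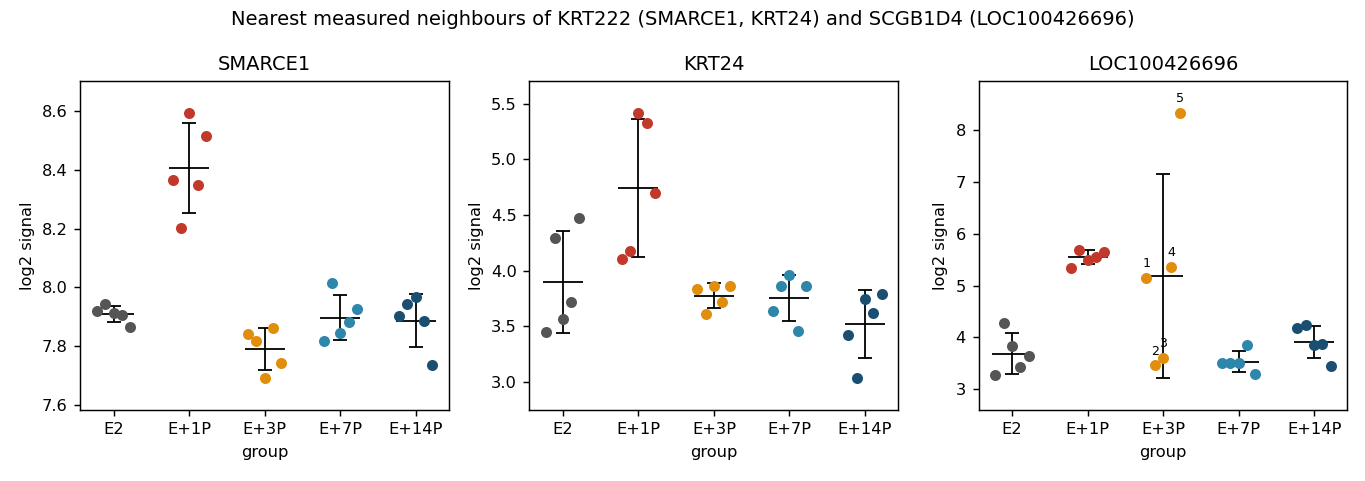
Log2 signal (vertical axis) of SMARCE1, KRT24 and LOC100426696 in the 5 groups (horizontal axis), 1 point per animal, with the mean as a bar and the SD as whiskers (n = 5 per group). All E+1P points of SMARCE1 lie at or above 8.20 and all other points at or below 8.01.

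Genes related to the 4 by family or pathway were counted in the same fit, in which 3.55% of the 15534 genes and 2.32% of all probe sets were called between E+1P and E2. Of the 5 other secretoglobins measured, of 10 listed, 0 rose and 0 fell after 1 day, with a median difference of -0.07 against a median of 0.00 over all genes. SCGB1A1, the club cell secretoglobin, differed by -0.07 (SE 0.94), SCGB1D1 by 0.19 (SE 0.18), SCGB1C1 by -0.19 (SE 0.31) and SCGB3A2 by 0.06 (SE 0.15). SCGB1D1 and SCGB3A2 lie below the 40th percentile of mean signal, where a change in transcript may not show. SCGB3A1 was 1.12 lower (SE 0.56, adjusted p = 0.393 in limma). It fell later, by 2.27 in E+3P (adjusted p = 0.0133, beside 5.34% of probe sets called lower) and by 2.10 in E+7P (adjusted p = 0.0323, beside 2.36%), from 8.82 ± 1.60 in E2. The E+3P call did not survive the removal of the 4 outlying arrays (adjusted p = 0.119) or a fit restricted to both groups (0.103). The E+7P call was lost when any of 8 arrays was left out (highest adjusted p = 0.102). Secretoglobin genes listed but not found by symbol included SCGB1D2, SCGB2A1 and SCGB2A2, which were not analysed here.

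Of 8 other genes of tyrosine breakdown, from 13 listed, 0 were called after 1 day, and their median difference was -0.27. TAT, which starts the pathway, differed by -0.05 (SE 0.12), HPD, which makes the substrate of HGD, by -0.25 (SE 0.23), and FAH, which carries out the last step, by -0.09 (SE 0.15). TAT and HPD lie below the 40th percentile of mean signal, so a change in their transcripts may not show. In E+3P 3 of the 8 fell, PCBD1 (-0.78, adjusted p = 0.00144), PCBD2 (-0.83, adjusted p = 0.0192) and ACAT1 (-0.64, adjusted p = 0.013), beside 5.34% of probe sets called lower in limma. Over all genes 12.2% were called there in either direction. The 2 PCBD genes encode dehydratases that recycle the cofactor of phenylalanine hydroxylase, and ACAT1 encodes a mitochondrial thiolase shared with other pathways. PCBD1 was also called lower than E2 in E+7P (-0.73, adjusted p = 0.00295 in limma) and E+14P (-1.01, adjusted p = 0.000189). ACAT1 was called lower in E+14P as well (-0.62, adjusted p = 0.0262). Over all genes 5.85% were called in either direction in E+7P and 5.79% in E+14P. The 3 genes were named after their values were seen, and their calls were not followed through the alternatives.

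Of 20 other type I keratins, from 28 listed, 0 were called after 1 day, with a median of 0.10. KRT18 and KRT19, keratins of simple epithelium, differed by 0.44 (SE 0.17, adjusted p = 0.215 in limma) and 0.25 (SE 0.40), KRT10, of the upper squamous layers, by -0.31 (SE 0.64), and KRT12, known from the cornea, by 0.12 (SE 0.22). Of 14 genes of the RGCC and cell cycle list, from 19, 0 were called after 1 day, with a median of 0.04. CDK1, the kinase that RGCC binds, differed by -0.06 (SE 0.27), its partner CCNB1 by -0.21 (SE 0.15), the mitotic kinase PLK1 by 0.26 (SE 0.18), AKT1 by -0.13 (SE 0.13) and SMAD3, a mediator of TGF-beta signals, by -0.03 (SE 0.11). CDK1 lies below the 40th percentile of mean signal, where a change in transcript may not show. Of 16 complement genes, from 25 listed, 0 were called, with a median of -0.01. In the list of hormone response genes, by contrast, 8 of 18 were called, 5 higher and 3 lower.

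Some hormone response genes were set beside the peak of the 4 genes. FKBP5, a co-chaperone of steroid receptors, was at 5.68 ± 0.36 in E2, 8.06 ± 0.11 in E+1P, 7.74 ± 0.54 in E+3P, 7.17 ± 0.15 in E+7P and 7.26 ± 0.41 in E+14P (SD, n = 5 each). Its E+1P range, 7.87 to 8.14, and its E+14P range, 6.76 to 7.88, both lay above every E2 animal, whose highest was 5.95. Every E+1P array was above every E2 array for 3.1% of probe sets, and the share for E+14P was not counted. The E+14P ranges of all 4 genes overlapped E2. Nothing is read from that contrast, since the 4 genes were chosen for a peak in E+1P. BTG2, an antiproliferative early gene named after its values were seen, was the only gene of the 18 called higher in E+1P than in E2 (1.56, adjusted p = 4.35e-05 in limma) and lower in E+3P than in E+1P (-1.54, adjusted p = 3.92e-05, beside 3.01% of probe sets called lower there). PGR fell by 1.10 in E+1P (adjusted p = 0.00295). Over the 81 measured genes of the 6 lists, 8 were called against E2 after 1 day, 19 after 3 days, 11 after 7 days and 12 after 14 days, or 9.88%, 23.5%, 13.6% and 14.8%. The shares over all 15534 genes were 3.55%, 12.2%, 5.85% and 5.79%, and those over all probe sets 2.32%, 10.4%, 4.19% and 3.77%. The hormone response list, chosen with earlier results known, held 8, 13, 8 and 8 of these calls. These 4 comparisons share the E2 arrays.

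**Figure D5:**
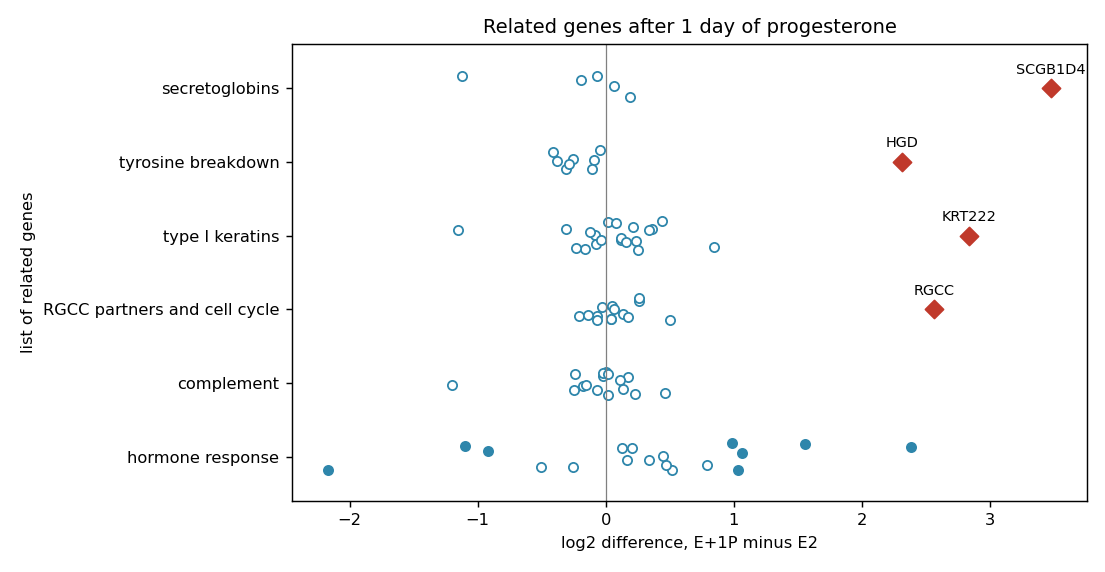
Log2 difference between E+1P and E2 (horizontal axis) for the genes of 6 lists (vertical axis), with the 4 genes as labelled diamonds and other genes as circles, filled where the adjusted p was under 0.05 (vertical scatter within a list has no meaning). Filled circles occur in the hormone response list, 5 higher and 3 lower.

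Across the 25 arrays the genes most like KRT222 and those most like HGD shared SEC14L2, and those most like RGCC and SCGB1D4 shared RSAD1. Likeness was measured by Pearson's r over all arrays, which is set mainly by the E+1P group, among 9111 genes (9110 for RGCC) with a median signal at or above the median of all values. After SMARCE1, the genes most like KRT222 were SEC14L2, a tocopherol-binding protein gene (r = 0.91), PTPRJ, a receptor phosphatase (0.90), PHKB, a subunit of phosphorylase kinase (0.90), and FARP2 (0.88). Those most like HGD were SMARCA1, an ATPase of ISWI chromatin remodelling complexes (0.88), SEC14L2 (0.87), the ceramidase gene ACER3 (0.87), H6PD (0.85) and ERGIC1 (0.85). KRT222 and HGD lie below the signal level set for these lists, so neither could appear for the other. Their own r was 0.88. SEC14L2, which is on both lists, gave 8.03, 8.57, 8.28, 8.21 and 8.38 in E+1P and 5.95, 5.46, 5.27, 6.21 and 6.38 in E+3P. Like KRT222 and HGD it showed no E+3P animal at the E+1P level.

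The genes most like RGCC were ALDH6A1, an enzyme of valine breakdown (r = 0.92), DDIT4, an inhibitor of mTOR signalling (0.92), RSAD1 (0.90), the phosphatase gene PPM1H (0.89) and NSG1 (0.89). Those most like SCGB1D4 were RSAD1 (0.89), RGCC (0.89), the synaptic scaffold and molybdenum cofactor gene GPHN (0.88), SLC35E3 (0.87) and ANKS1A (0.86). ALDH6A1 gave 9.65, 9.86, 9.45, 9.76 and 9.92 in E+1P and 7.76, 7.34, 7.04, 8.48 and 9.56 in E+3P. GPHN gave 8.74, 8.65, 8.78, 8.66 and 8.69 in E+1P and 7.79, 7.23, 7.13, 8.24 and 9.14 in E+3P. In both, as in SCGB1D4, E+3P replicate 5 was the highest of its group and replicates 2 and 3 the lowest. In RGCC replicate 5 was also the highest and replicate 3 the lowest, but replicate 2 was the middle value.

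With the group means taken out, the likeness of RGCC and SCGB1D4 was r = 0.72 over the 25 arrays and 0.30 over the 20 arrays outside E+3P, so the higher value rested on the E+3P animals. For the other 5 pairs of the 4 genes it lay between 0.15 and 0.27 over all arrays. Over the 20 arrays outside E+3P it was 0.40 for KRT222 with SCGB1D4 and 0.38 for HGD with SCGB1D4, both above that of RGCC with SCGB1D4, and between 0.16 and 0.25 for the other 3 pairs. By this second measure the genes most like RGCC were OSBP, an oxysterol-binding protein gene (0.88), and ALDH6A1 (0.85), and those most like SCGB1D4 were ELL3 (0.89) and ZMYM4 (0.89), with the choline kinase gene CHKA on both lists (0.82 and 0.88). For KRT222 they were TMED4 (0.77) and BTN3A3 (0.76), and for HGD MRPL11 (0.72) and FOXN3 (0.72).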

How the data were processed

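RNA from the cervix of 25 animals was measured with 1 Affymetrix rhesus gene array each. The deposited values are log2 signals for 40489 probe sets, made by the authors with Affymetrix Expression Console, per the submitters' processing notes. No source used here gives the summarization or normalization settings, and signal over background is unknown. Groups and their sizes (5 each) follow the sample labels. The series' design text gives 13, 4, 5, 5 and 10 animals for 0, 1, 3, 7 and 14 days of progesterone, and only the labelled arrays were used. Replicates were numbered in accession order.

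Gene names came from the platform annotation: 16020 probe sets had 1 symbol, 490 several and 23979 none. For each gene the probe set with 1 symbol and the highest mean was used, and no second normalization was applied. All probe sets were fitted with limma 3.58.1 in R 4.3.3, with 1 coefficient per group, a mean-variance trend and 20 residual degrees of freedom. P-values were adjusted by Benjamini-Hochberg over all probe sets, with a threshold of 0.05. SEs come from this pooled spread and SDs from the 5 arrays of a group. The number of arrays limits the precision. Comparisons with E2 share the same 5 control arrays.

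The 4 genes and all lists were chosen with earlier results of these data known. The genes named are the 4, the 5 most alike for each by r over values and over deviations from group means, the nearest measured neighbours, and fixed members of each list. Others are said to be named after their values were seen. Alternatives were array weights, quantile and median scaling, a filter on low probe sets, fits without the trend or with the compared groups alone, marker means as covariates, and arrays left out. The fit was tested on simulated data.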

Additional observations from a re-analysis of the deposited data

How the results depend on the processing

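For the 4 genes and the counts of calls, 813 of 876 alternative values were counted as unchanged and the others were not. For differences of the 4 genes that involve E2 or E+1P, unchanged meant within the spread between animals. For counts it meant within 1.5 times the count. For the late comparisons of the 4 genes it meant only that the call was the same, whatever the shift in size. For the other named genes 2304 of 2498 kept their call or stayed uncalled, 169 lost a call and 25 gained one. The sign of a difference changed in 50 of 630 alternatives for the 4 genes, 49 of them in differences that involve E+7P or E+14P and were at most 0.367 in size. The cause was not tested for any of them. With squamous, columnar and smooth muscle means as covariates the SCGB1D4 difference between E+3P and E+1P turned from -1.50 to 0.26, that of RGCC was -0.69, SCGB1D4 was 3.65 above E2 in E+3P and 1.43 in E+14P, and RGCC was 0.71 above E2 in E+14P. With the fibroblast covariate, added after seeing the data, E+1P differed from E2 by 2.03 for RGCC (2.10 with the columnar mean too) and 2.75 for SCGB1D4, and E+7P by -0.15 and -0.25. KRT222 and HGD moved by less than the SD between animals in every alternative run. HGD and SCGB1D4 lie below the 40th percentile of mean signal, so the filter on low probe sets gave no value for them. The same held for TAT, HPD, CDK1, SCGB1D1, SCGB3A2, KRT24, LOC100426696 and LOC722315. No alternative called any of the 4 genes between late groups (lowest adjusted p = 0.238 in limma). Nothing is read from this, since the choice of the 4 genes used these groups.

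Leaving out each array in turn, the E+1P difference from E2 ranged from 2.62 to 3.00 for KRT222, 2.22 to 2.48 for HGD, 2.45 to 2.69 for RGCC and 3.31 to 3.69 for SCGB1D4. The E+3P difference from E2 ranged from 0.43 (without E+3P replicate 5) to 1.31 (without replicate 3) for RGCC and from 1.18 (without replicate 5) to 2.48 (without replicate 2) for SCGB1D4, and that from E+1P ranged from -2.14 to -1.26 and from -2.30 to -0.997. For E+14P against E2, SCGB1D4 ranged from -0.14 to 0.51.

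Probe sets called between E+1P and E2 numbered 938, 1986 with array weights and 633 to 965 with an array left out. Between E+3P and E2 they numbered 4214, 419 with columnar and fibroblast covariates, 825 with both groups alone, 2612 with the smooth muscle covariate, 1711 with 3 covariates, 2232 without the 4 arrays that stand apart, and 2592 (without E+3P replicate 2) to 5114 (without replicate 5) with an array left out. Between E+3P and E+1P they numbered 1790, and 210, 369, 368, 325 and 547 under the same settings in that order, with 842 (without E+1P replicate 3) to 3665 (without E+3P replicate 5) on leaving out an array. Between E+7P and E2 they numbered 1695, 2832 with array weights and 1008 to 1696 on leaving out an array. Between E+14P and E2 they numbered 1528, 924 with both groups alone, 2354 with the fibroblast covariate, 837 without the 4 arrays and 862 to 1493 on leaving out an array. Between E+7P and E+3P they numbered 2, 4 without low probe sets, 1 with the fibroblast covariate, no trend or quantile scaling, 0 in the other settings that changed the count, and 0 to 65 (without E+3P replicate 5) on leaving out an array. Between E+14P and E+7P they numbered 0 throughout. Genes of the related lists called numbered 8 after 1 day (15 with array weights, 6 to 9 on leaving out an array), 19 after 3 days (10 with columnar and fibroblast covariates, 9 with both groups alone, 12 with 3 covariates, 14 to 19), 11 after 7 days (8 to 14) and 12 after 14 days (9 to 12).

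No paired analysis was possible because the labels give no replicate number shared between groups, and each animal gave 1 array.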
